A study of Drosophila melanogaster with 10 samples.

Results

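The genes described here are 31 genes of the muscle sarcomere, the contractile unit of striated muscle, in *Drosophila* head libraries. A list of names defined them among 17716 genes of the count tables, with no threshold on a measured value. All 31 were found in the table of the 3 transgenic groups and in the table of TRAP control and whole brain, 30 by their current symbol and *Unc-89* by an older symbol of FBgn0053519. By role they are 6 thick filament genes, 7 troponin genes, 2 tropomyosin genes, 5 genes of the sarcomeric actins and the thin filament end, 5 genes of giant connecting proteins, 5 Z-disc genes and the calcium pump gene *SERCA*.

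In a sarcomere, thick filaments of myosin pull on thin filaments of actin that are anchored in the Z-disc. Calcium binds troponin C, troponin and tropomyosin then move on the thin filament and free the actin for myosin, and the calcium pump returns calcium to the sarcoplasmic reticulum. Fly heads hold muscles that move the proboscis, the pharynx and the antennae, whereas the indirect flight muscles lie in the thorax, and neurons build their cytoskeleton with cytoplasmic actins and nonmuscle myosin.

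Translating ribosome affinity purification with sequencing (TRAP-seq) was used to read ribosome-bound mRNA of dopaminergic (DA) neurons of flies that express human PARIS (ZNF746). The 3 TRAP control libraries came from w1118 flies with *dTH-GAL4* and the tagged ribosomal protein GFP-RpL10a. The 3 PARIS WT and 3 PARIS C571A libraries came from flies that carried the same driver and tag and expressed wild-type human PARIS or its C571A mutant, and the single whole brain library was total RNA of wild-type w1118 flies without pull-down. *dTH-GAL4* is active in cells that use the tyrosine hydroxylase promoter, so every TRAP group shared the driver and the tag, and flies of both sexes were used.

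The sample labels give an age of day 30, and the methods place collection 2 days after eclosion. TRAP control and PARIS C571A libraries were made from 500 heads each and PARIS WT libraries from 1500 heads each, so this number and the PARIS WT group cannot be told apart. The library without pull-down is named whole brain in the labels and whole head in the methods, and is called whole brain here. The methods describe the replicates as independent biological samples, and the labels do not say whether these were separate crosses. In bulk libraries, fewer muscle cells and less muscle mRNA per cell cannot be told apart.

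Total counts were 8819116 to 50102982 in the 9 TRAP libraries and 11619907 in whole brain. Ribosomal, small and mitochondrially encoded RNA took 33.4% to 70.2% of the counts in TRAP libraries and 9.17% in whole brain. In CPM (counts divided by the scaled library size) within the table of TRAP control and whole brain, 4 markers of DA neurons summed to 511 ± 94.9 (SD, n = 3) in TRAP control and 185 in whole brain. Of these, *Vmat* and *Ddc* were higher in every TRAP control replicate, with log2 ratios to whole brain of 1.97 ± 0.15 and 0.99 ± 0.24. *ple*, tyrosine hydroxylase, was listed at 953, 0 and 476 counts in TRAP control and 400 in whole brain, and *DAT*, the dopamine transporter, at 1552, 0 and 0 counts against 308, so these defining markers were not higher throughout. The 10 markers of neurons in general summed to 3695 ± 379 CPM in TRAP control and 989 CPM in whole brain. The 13 photoreceptor markers summed to 18204 ± 781 and 21731 CPM, and the 8 fat body markers to 16042 ± 3672 and 28345 CPM. The fat body sums included *Yp3*, listed at 76362, 0 and 63161 counts in TRAP control and 0 in whole brain, and the 5 markers with counts in each of these libraries summed to 12522 ± 801 and 28306 CPM. Zeros of such genes can be failed estimates. Markers of photoreceptors and fat body were thus well measured in the TRAP libraries beside those of DA neurons. The 31 muscle genes took 77061 to 201010 counts in the TRAP libraries, which was 0.401% to 1.03% of a library, and 123927 counts or 1.07% in whole brain.

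The first comparison asked which muscle genes were lower or higher in the pulled-down mRNA than in the whole head. Genes of contractile filaments were mostly lower in TRAP control, with *Mhc*, the muscle myosin heavy chain, at 200 ± 14.1 CPM (SD, n = 3) against 1200 CPM in whole brain. *Msp300*, which codes for a giant spectrin-repeat protein that links nuclei to the cytoskeleton and lies at the Z-disc, went the other way, with 7027 ± 308 CPM against 756 CPM. Log2 ratios were taken for each TRAP control replicate over the single whole brain library, and 1 whole brain library allows no test. The ratio was below 0 in all 3 replicates for 23 of 31 muscle genes, against 41.1% of 14480 genes, and above 0 in all 3 for 4 of 31, against 22.3% of genes. The median ratio was −0.75 over the muscle genes and −0.45 over all genes. With each replicate read against the median of its own genes, 17 muscle genes were below it in every replicate and 8 above, where 34.6% and 35.4% of all genes were. Without scaling factors, library sizes alone put 28 below and 1 above.

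**Figure D1:**
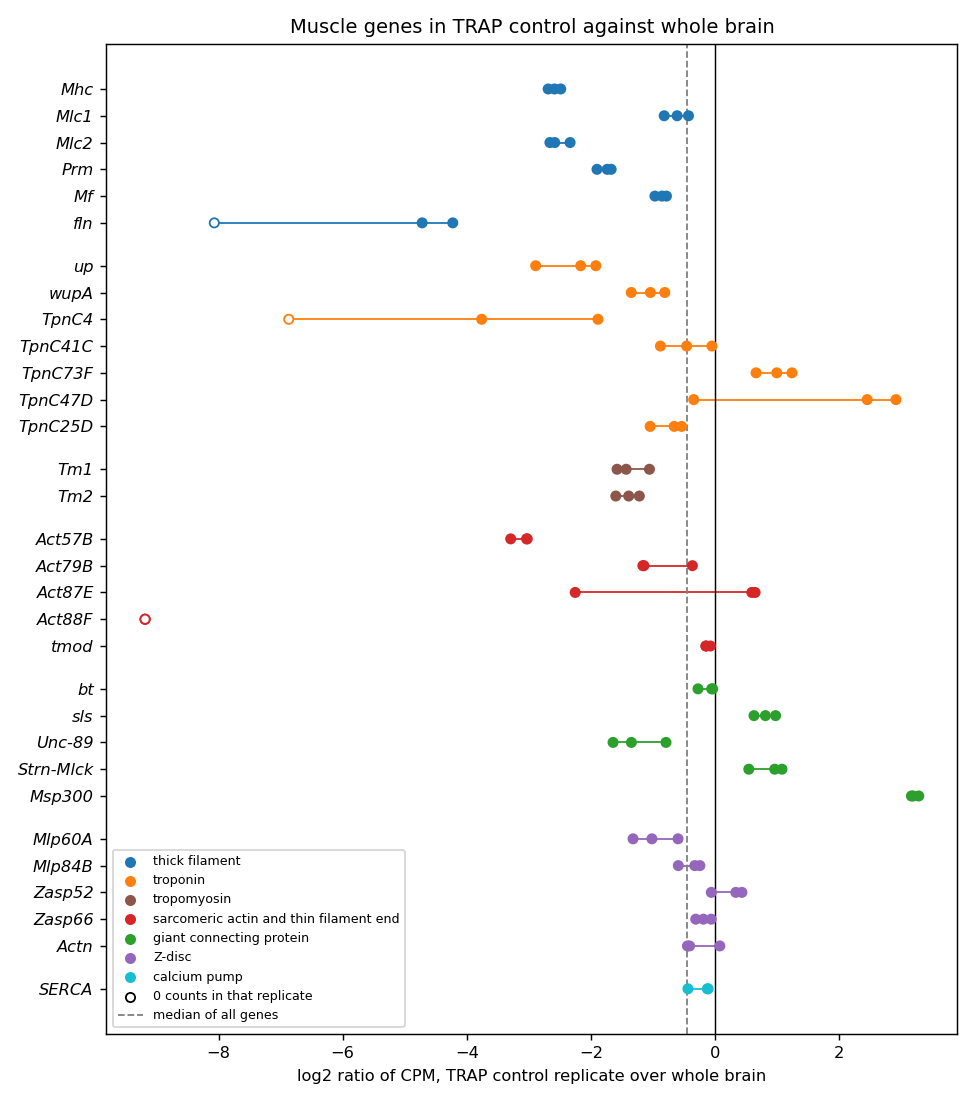
The log2 ratio of CPM in each TRAP control replicate over whole brain is drawn on the horizontal axis for the 31 muscle genes, grouped by role, with a line from the lowest to the highest replicate. The 3 points of *Msp300* lie farthest right at 3.17 to 3.29, the 3 points of *Act88F* farthest left, and open points mark replicates with 0 counts, whose place is set by the prior count of 1.

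All 6 thick filament genes were lower in TRAP control in every replicate. *Mhc* had log2 ratios of −2.59, −2.69 and −2.49 in replicates 1, 2 and 3. *Mlc2*, the regulatory light chain of muscle myosin, had −2.33, −2.66 and −2.58, and *Prm*, the paramyosin of the filament core, −1.74, −1.90 and −1.67. These 3 genes lay close together between replicates. *Mlc1*, the alkali light chain, had a mean of −0.62 ± 0.20 (SD, n = 3) and *Mf*, the thick filament protein myofilin, −0.87 ± 0.09. The myosin subunit *Mlc1* thus differed from *Mhc* and *Mlc2* by more than the spread of the TRAP control replicates. That spread leaves out the error of the single whole brain library. *fln*, flightin, which is needed for thick filaments of flight muscle, had 9, 14 and 0 counts in TRAP control and 344 in whole brain.

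With the scaling used, the troponin genes did not share 1 direction. *up*, troponin T, had a mean ratio of −2.32 ± 0.50 and *wupA*, troponin I, −1.07 ± 0.27. Of the troponin C genes, which code for the calcium sensor, *TpnC25D* (−0.75 ± 0.26) and *TpnC41C* (−0.46 ± 0.42) were lower and *TpnC73F* (0.97 ± 0.29) was higher in every replicate. *TpnC73F* had 118, 150 and 66 counts in TRAP control and 77 in whole brain. With library sizes alone its mean ratio turned to −0.13, so its direction depended on the scaling. *TpnC47D* had 4, 36 and 33 counts against 7, and its ratio changed sign between replicates. *TpnC4*, the troponin C of indirect flight muscle, had 30, 8 and 0 counts against 149. The tropomyosin genes *Tm1* (−1.35 ± 0.27) and *Tm2* (−1.40 ± 0.19), whose proteins lie along the thin filament, were lower in every replicate.

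Of the actins of muscle, *Act57B*, of larval and adult body muscle, was the lowest with counts in every library, at −3.12 ± 0.15. *Act79B*, of leg and other tubular muscles, had −1.16, −0.36 and −1.15. *Act88F*, the actin of indirect flight muscle, had 0 counts in each TRAP control library and 747 in whole brain. If these zeros are true counts, a level of 3 counts per library in TRAP control would be 170-fold below whole brain. They can also be failed estimates, and actin counts depend on how shared reads were split, so this is no firm bound. *Act88F* had 42 counts in PARIS C571A replicate 2, 22 in PARIS WT replicate 3 and 0 in the other PARIS libraries. By these counts it was the muscle gene least seen in TRAP libraries. Together, *Act88F*, *fln* and *TpnC4* summed to 60.0 CPM in whole brain and 1.26 ± 1.24 CPM in TRAP control. Markers of some other tissues were also higher in whole brain. The 8 accessory gland markers summed to 558 CPM in whole brain and 16.95 ± 5.69 CPM in TRAP control, the 7 gut markers to 365 and 80.5 ± 19.0 CPM, and the 4 haemocyte markers to 543 and 124 ± 10.8 CPM. The 17 testis markers went the other way, at 189 CPM in whole brain and 803 ± 47.3 CPM in TRAP control. The part of other tissues in the flight muscle counts of whole brain was not tested. *tmod*, tropomodulin, which caps the end of the thin filament, had −0.12 ± 0.04, below 0 in every replicate. Its ratios of −0.07, −0.14 and −0.15 lay above the median of all genes in each replicate (−0.26, −0.27 and −0.33). Its direction thus depended on the reference.

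The 5 genes of giant connecting proteins did not share 1 direction. *Msp300* was far above whole brain, *sls* and *Strn-Mlck* were above it, and *Unc-89* was below. *sls*, the fly titin that codes for kettin and Sallimus, had ratios of 0.98, 0.81 and 0.63. *Strn-Mlck*, a myosin light chain kinase with titin-like domains, had 1.08, 0.96 and 0.55. With library sizes alone the mean ratios of these genes turned to −0.30 and −0.24, while *Msp300* stayed at 2.11. *bt*, projectin, had −0.05, −0.04 and −0.27, close to 0. *Unc-89*, the fly obscurin of the M-line, was lower in every replicate, at −1.26 ± 0.43. *Msp300* lies at chr2L:5100877-5207002 on the plus strand of release 6, with 69810 bases of exon, and 4 annotated genes overlap it on the same strand. In whole brain it took 12.6% of the counts of the muscle genes and *Mhc* 20.0%, and in TRAP control *Msp300* took 70.1% to 71.3% and *Mhc* 1.89% to 2.25%.

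Of the 5 Z-disc genes, *Mlp60A*, *Mlp84B* and *Zasp66* were below whole brain in every replicate, *Mlp60A* the farthest. *Actn*, alpha-actinin, which crosslinks actin at the Z-disc, had −0.26 ± 0.29, and *Zasp52*, a PDZ and LIM domain scaffold, 0.24 ± 0.26, and both changed sign between replicates. *Zasp66*, a relative of *Zasp52*, had −0.19 ± 0.12, and the muscle LIM proteins *Mlp84B* and *Mlp60A* had −0.39 ± 0.18 and −0.98 ± 0.36. *SERCA*, which fly cells in general use to fill the endoplasmic reticulum with calcium, had −0.22 ± 0.18, also below 0 in every replicate. Their counts in TRAP control ranged from 435 for *Mlp60A* in replicate 3 to 3506 for *SERCA* in replicate 1, so none of these ratios rested on few counts.

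Levels between genes were compared per kilobase of exon. In whole brain the order was *Mlc2* (246 CPM per kb), *Act57B* (201), *Mhc* (132), *Mlc1* (94.97) and *TpnC25D* (92.7). In TRAP control it was *Msp300* (101 ± 4.41 CPM per kb), *Mlc1* (62.2 ± 8.397), *TpnC25D* (55.9 ± 9.79), *Mlp84B* (44.1 ± 5.39), *Mlc2* (42.9 ± 5.18) and *Mf* (40.8 ± 2.63). Among these 6 genes of TRAP control, *Msp300* stood clear of the next one, while the levels of *Mlc1* and *TpnC25D* overlapped within their SD, as did those of *Mlp84B*, *Mlc2* and *Mf*. Per kilobase, *sls* had 10.6 ± 1.27 and *bt* 10.7 ± 0.96 in TRAP control, and 6.03 and 11.6 in whole brain.

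Ratios moved with exon length over all genes. The median log2 ratio was −0.83 for 4252 genes under 1 kb of exon, −0.53 for 3600 genes of 2 to 4 kb, 1.23 for 441 genes of 8 to 16 kb and 1.81 for 39 genes of 16 to 25 kb. Spearman's rho between length and ratio was 0.17 over 14401 genes and 0.34 over the 31 muscle genes, as a description, since the genes share the same libraries. The 6 muscle genes of 8 to 16 kb, *Mhc*, *Tm1*, *Unc-89*, *Zasp52*, *tmod* and *SERCA*, had a median of −0.74, below the 1.23 of all genes of that length. Over 25 kb lay *bt*, *sls*, *Strn-Mlck* and *Msp300* with a median of 0.84, and 6 other genes with a median of 2.20 and a range of −0.53 to 3.08. *Msp300* with 3.22 was above this range. The part of length in these ratios was not tested.

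**Figure D2:**
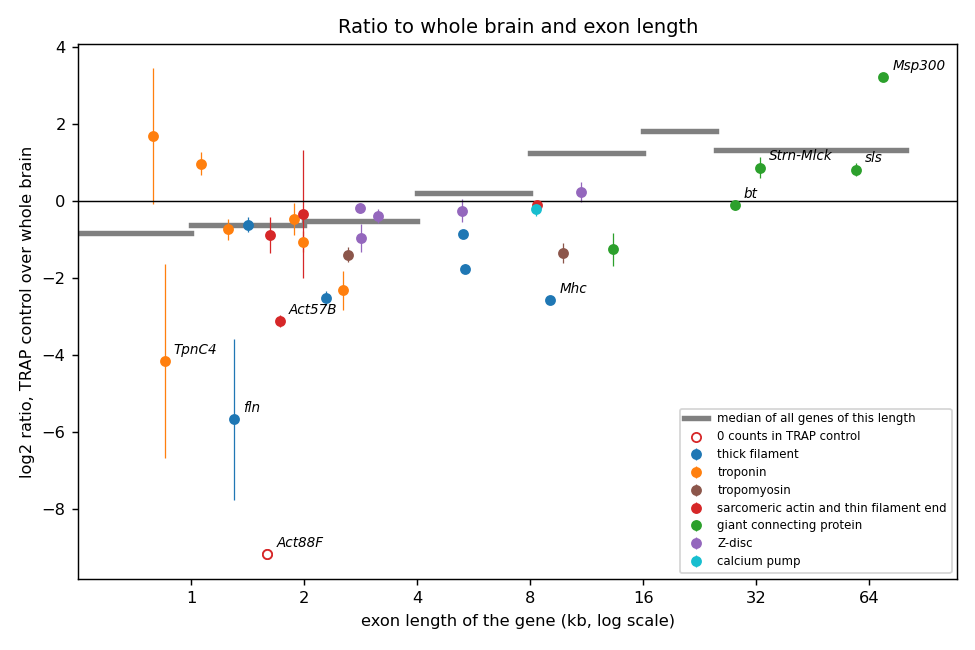
The mean log2 ratio to whole brain (± SD of 3 TRAP control replicates) is set against the exon length in kb, on a log scale, for the 31 muscle genes coloured by role, and grey bars give the median of all genes in each length range, the first and last range being drawn from 0.5 and up to 80 kb. *Mhc* lies at −2.59 where genes of 8 to 16 kb have a median of 1.23, and the open point of *Act88F*, with 0 counts in TRAP control, is placed by the prior count.

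The second comparison set the TRAP libraries of PARIS C571A against TRAP control. *Msp300* was lower in PARIS C571A, and no other muscle gene passed the test. The cells that gave this mRNA were not identified. In CPM scaled over the 9 TRAP libraries, *Msp300* had 6018, 5670 and 5542 in TRAP control and 3198, 3503 and 3062 in PARIS C571A. The groups did not overlap, and the log2 fold change was −0.83 ± 0.09 (SE), with an adjusted p of 0.0462 by edgeR's quasi-likelihood test with Benjamini-Hochberg adjustment over 9986 genes. Of 30 muscle genes tested, 1 was called lower and 0 higher, against 0.15% and 0.02% of all genes. At an unadjusted p under 0.05 there were 3 lower and 4 higher, against 5.32% and 4.52% of genes. The median log2 fold change was 0.03 over the muscle genes and 0.01 over all genes.

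The call of *Msp300* was lost without any 1 of the 6 libraries, with adjusted p of 0.0824 to 0.286 and log2 fold changes of −0.89 to −0.78. It was also lost with no filter on low counts (adjusted p = 0.0512) and with the replicate number as a block (adjusted p = 0.704), although the numbers did not pair the libraries. DESeq2 gave it an adjusted p of 2.87e-23 and called 3 muscle genes lower, *Msp300*, *sls* and *Act79B*, and 1 higher, *Mlc2*, where it called 304 genes lower and 135 higher in all. *Msp300* was 56.6% to 58.0% of muscle gene counts in PARIS C571A. The 31 genes summed to 8129 ± 381 CPM (SD, n = 3) in TRAP control and 5659 ± 343 CPM in PARIS C571A, and without *Msp300* to 2386 ± 143 and 2405 ± 125 CPM. The sums without *Msp300* differed by less than their SD, but they added genes that lay on opposite sides of TRAP control. The thick filament genes summed to 510 ± 26.6 and 680 ± 44.7 CPM, and *sls* had a mean of 512 ± 61.4 and 323 ± 27.1 CPM.

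**Figure D3:**
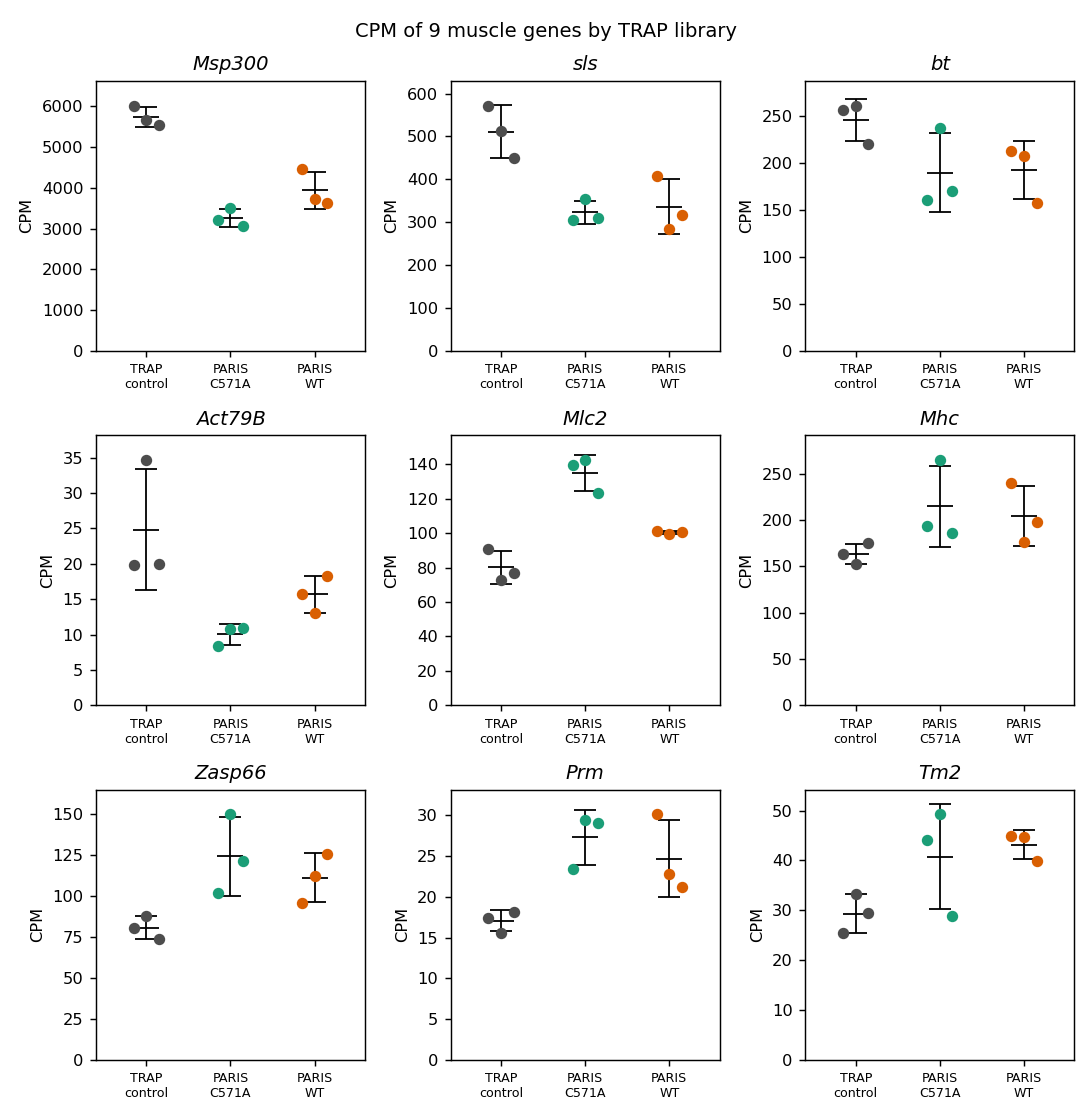
CPM, scaled over the 9 TRAP libraries, is drawn for 9 muscle genes, with a point for each library and the mean ± SD of each group of 3. *Msp300* is at 5542 CPM or more in every TRAP control library and at 4459 CPM or less in every PARIS library, and *Mlc2* is highest in the 3 PARIS C571A libraries.

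The other giant genes gave the following values. *sls* had 572, 513 and 449 CPM in TRAP control and 305, 354 and 310 CPM in PARIS C571A, a log2 fold change of −0.68 ± 0.13 with an adjusted p of 0.167. Its groups did not overlap, and the difference did not pass the test. *bt* had 256, 261 and 220 CPM in TRAP control and 161, 237 and 170 CPM in PARIS C571A, with overlap between the groups and an adjusted p of 0.560. *Strn-Mlck* (−0.09 ± 0.18) and *Unc-89* (0.01 ± 0.27) were nearer to 0. The 6 other genes over 25 kb had a median of −0.34 and a range of −1.41 to 0.58, with 4 negative, and the 39 genes of 16 to 25 kb a median of −0.25. The part of gene length in the change of *Msp300* was not tested.

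All 6 thick filament genes had positive log2 fold changes, with a median of 0.52 beside 0.01 over all genes. Of them, 0 of 6 passed the adjusted test, and 2 had an unadjusted p under 0.05, against 4.52% of genes higher. *Mlc2* had 91.0, 73.0 and 76.7 CPM in TRAP control and 140, 142 and 123 CPM in PARIS C571A, a log2 fold change of 0.74 ± 0.14 with an adjusted p of 0.171. *Prm* had 17.4, 15.6 and 18.2 CPM and 23.4, 29.5 and 29.0 CPM, a change of 0.66 ± 0.20 with an adjusted p of 0.327. Every PARIS C571A library was above every TRAP control library for these genes. That held for *Mhc*, *Mf* and *fln* too, and for 8 of 30 muscle genes in all, against 10.4% of genes, while 3 of 30 (*Msp300*, *sls* and *Act79B*) were lower in every library, against 10.2%.

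*Act79B* had 19.8, 34.7 and 20.0 CPM in TRAP control and 8.36, 10.8 and 10.9 CPM in PARIS C571A. It had the most negative log2 fold change of the muscle genes tested, −1.32 ± 0.30, with an adjusted p of 0.202. *Zasp66* had 80.1, 87.8 and 73.5 CPM and 102, 149 and 121 CPM, a change of 0.61 ± 0.17 with an adjusted p of 0.302. *tmod* had 51.3 to 54.1 CPM and 65.4 to 67.6 CPM, a change of 0.33 ± 0.12 with an adjusted p of 0.432. The capping protein thus had tight and separate groups, and its difference did not pass the test over all genes. *Act88F*, with counts in 1 of these 6 libraries, was not tested.

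The third comparison set PARIS WT against TRAP control, and 0 of 29 muscle genes tested passed the adjusted test in either direction, against 0.608% of 9697 genes lower and 0.103% higher. At an unadjusted p under 0.05 there were 2 lower and 5 higher, against 7.4% and 4.23% of genes. DESeq2 called 2 of 31 muscle genes lower, *Msp300* and *sls*, and 0 higher, where it called 573 of 13987 genes lower and 168 higher. The median log2 fold change was 0.11 over the muscle genes and −0.02 over all genes. This median ranged from −0.030 to 0.21 when 1 library was left out, and it was −0.030 without PARIS WT replicate 1. This comparison and the one before share the TRAP control libraries.

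*Msp300* had 4459, 3728 and 3615 CPM in PARIS WT, all below TRAP control, a log2 fold change of −0.56 ± 0.11 with an adjusted p of 0.114. *sls* had 408, 284 and 317 CPM, all below TRAP control, with −0.61 ± 0.17 and an adjusted p of 0.176. *bt* had 213, 207 and 157 CPM, also all below TRAP control, with −0.36 ± 0.15 and an adjusted p of 0.442. The giant genes thus had the lowest p-values among the negative changes, and 5 of 5 of them were negative. Their median log2 fold change was −0.36, beside −0.02 over all genes. At an unadjusted p under 0.05 there were 2, against 7.4% of genes lower. Genes of 16 to 25 kb had a median of −0.23 in this comparison, and the 6 other genes over 25 kb −0.29.

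*Tm2* had 25.4, 33.2 and 29.3 CPM in TRAP control and 44.98, 44.6 and 39.8 CPM in PARIS WT, a change of 0.55 ± 0.16 with an adjusted p of 0.222. *Zasp66* had 95.3, 112 and 126 CPM in PARIS WT, 0.46 ± 0.14 with an adjusted p of 0.256. *Mlc1* had 62.1, 72.2 and 81.5 CPM in TRAP control and 88.4, 100 and 99.3 CPM in PARIS WT, 0.40 ± 0.14 with an adjusted p of 0.328. For these 3 genes the groups did not overlap. The 6 thick filament genes were again all positive, with a median log2 fold change of 0.36 beside −0.02 over all genes. Of them, 3 had an unadjusted p under 0.05, against 4.23% of genes higher. Every PARIS WT library was above every TRAP control library for 9 of 29 muscle genes, against 9.89% of genes. Every PARIS WT library was below for 4 of 29, against 12.1%. *up*, *wupA* and *TpnC73F* had log2 fold changes of 0.16 ± 0.35, 0.01 ± 0.20 and 0.27 ± 0.41. *TpnC4* had 0 counts in the 3 PARIS WT libraries and was not tested.

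**Figure D4:**
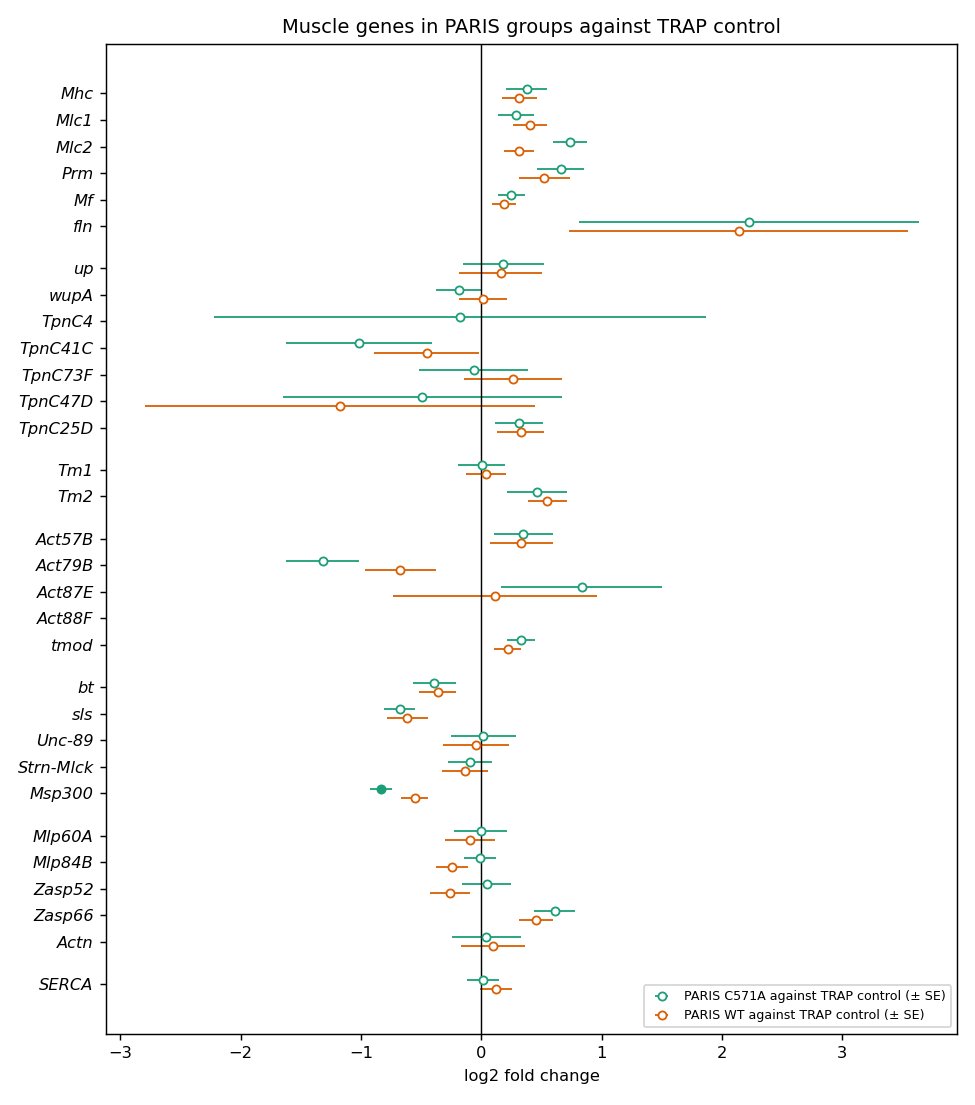
Log2 fold changes (± SE) against TRAP control are drawn for PARIS C571A and PARIS WT for the muscle genes tested, grouped by role, and the filled point marks an adjusted p under 0.05. *Msp300* in PARIS C571A is the filled point at −0.83, the 6 thick filament genes lie right of 0 in both groups, and genes with few counts such as *fln* and *TpnC47D* have wide errors.

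Between PARIS WT and PARIS C571A, which differ in the mutated residue, 0 of 29 muscle genes passed the adjusted test, against 0% of 9403 genes lower and 0.0213% higher. At an unadjusted p under 0.05 there were 1 lower and 2 higher, against 4.21% and 4.08%. DESeq2 called 1 of 31 muscle genes lower, *Mlc2*, and 1 higher, *Msp300*, where it called 179 of 13696 genes lower and 144 higher. The median log2 fold change was 0.02, and −0.02 over all genes. The sign of this median was not stable, with a range of −0.045 to 0.064 when 1 library was left out. It was negative without PARIS C571A replicate 1 (−0.031), PARIS C571A replicate 3 (−0.045) or PARIS WT replicate 1 (−0.032). *Mlc2* had 101, 99.4 and 100 CPM in PARIS WT, below each PARIS C571A library, with −0.38 ± 0.10 and an adjusted p of 0.338. *Msp300* was higher in each PARIS WT library, with 0.32 ± 0.10 and an adjusted p of 0.456. *Act79B* had 15.7, 13.0 and 18.3 CPM in PARIS WT, also above each PARIS C571A library, with 0.69 ± 0.24 and an adjusted p of 0.516.

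The next smallest p-values in this comparison belonged to genes whose groups lay closer. *Mlp84B* had 109, 109 and 122 CPM in PARIS C571A and 99.4, 88.0 and 101 CPM in PARIS WT, with −0.19 ± 0.10 and an adjusted p of 0.746. *Zasp52* had 59.6, 79.1 and 88.2 CPM and 66.6, 58.8 and 57.2 CPM, with −0.26 ± 0.17. *SERCA* had 167, 168 and 184 CPM and 184, 199 and 174 CPM, with 0.15 ± 0.10. The groups overlapped for the last pair, and 3 of 29 muscle genes were lower in every PARIS WT library, against 10.3% of genes, and 2 higher, against 6.84%. For *up*, *TpnC47D* and *Mlp60A* the separate table of these 2 groups held other counts, and *Mlp60A* had 1091, 763 and 1687 counts in PARIS C571A in the table of the 3 groups and 1728, 1049 and 2161 in the other.

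The actin genes differ in where their proteins are used and share much of their sequence. The coding sequences of the 6 actin genes have 1128 bases each and are identical at 84.0% to 91.8% of positions between pairs, with the longest identical run of a pair at 25 to 77 bases. A read from a shared stretch cannot name its gene, so these counts depend on how the authors' estimation split such reads.

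The counts of *Act87E*, an actin of larval and adult body muscle, and of *Act5C*, a cytoplasmic actin, were uneven within groups. In the TRAP control libraries *Act87E* had 33.6, 35.0 and 4.62 CPM. It had 50.5, 39.3 and 41.7 CPM with PARIS C571A and 41.6, 8.0 and 29.9 CPM with PARIS WT. TRAP control replicate 3 and PARIS WT replicate 2 were thus several times below the rest. In the same order of groups *Act5C* had 396, 332 and 28.1 CPM, then 368, 387 and 338 CPM, then 357, 372 and 30.6 CPM, with TRAP control replicate 3 and PARIS WT replicate 3 low. *Act57B* and *Act42A*, the other cytoplasmic actin, had no such library.

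The log2 fold change of *Act87E* in PARIS C571A against TRAP control was 0.83 ± 0.67 with all libraries and 0.35 ± 0.18 without TRAP control replicate 3, with adjusted p of 0.819 and 0.614. Against whole brain its ratio was 0.59 and 0.65 in replicates 1 and 2 and −2.25 in replicate 3. Fold changes of *Act87E* and *Act5C* were therefore read as uncertain. *Act42A* had 0.46 ± 0.25 in PARIS C571A and −0.22 ± 0.25 in PARIS WT against TRAP control, with adjusted p of 0.659 and 0.904.

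**Figure D5:**
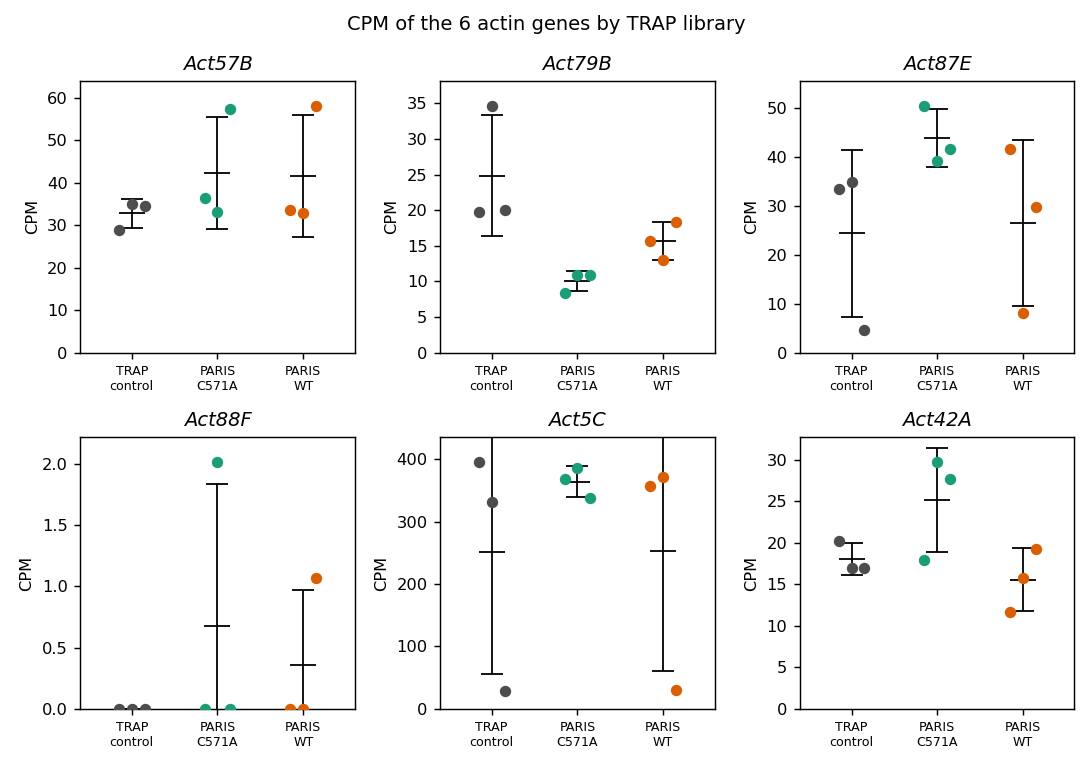
CPM, scaled over the 9 TRAP libraries, is drawn for 4 muscle actins and the cytoplasmic actins *Act5C* and *Act42A*, with a point for each library and the mean ± SD of each group of 3. *Act87E* falls to 4.62 CPM in 1 TRAP control library and 8.0 CPM in 1 PARIS WT library, and *Act5C* to 28.1 and 30.6 CPM.

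Of 5 cytoplasmic relatives of actin, myosin and troponin C, 3 were higher in TRAP control than in whole brain in every replicate, against 22.3% of genes. Such ratios depend on the scaling, as library sizes alone moved the median of all genes from −0.45 to −1.44. *sqh*, the regulatory light chain of nonmuscle myosin, had a log2 ratio of 0.61 ± 0.29, *Mlc-c*, its essential light chain, 1.09 ± 0.19, and *Cam*, calmodulin, a calcium sensor that shares its fold with troponin C, 1.26 ± 0.10. *Mlc2* and *Mlc1* of muscle myosin were below 0 in every replicate. *Act42A* was below 0 in every replicate too, at −0.25 ± 0.15, and *Act5C* had 0.53, 0.27 and −3.29. In the PARIS comparisons 0 of 5 of these relatives passed the adjusted test, and *Cam* had the smallest p, with 0.30 ± 0.10 and an adjusted p of 0.376 in PARIS C571A.

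Other genes of muscle were taken as lists. Of 14 genes of calcium handling 12 were matched, and of 24 regulators and assembly or attachment genes 23. The calcium handling genes summed to 975 ± 134 CPM in TRAP control and 540 CPM in whole brain. The sum turned on *Ca-alpha1D*, a voltage-gated calcium channel (2.89 ± 0.19), and *CASK*, a scaffold of the synapse (1.997 ± 0.33). The regulators summed to 1174 ± 41.7 and 1607 CPM, where *Gel*, the actin-severing gelsolin, made up 619 CPM of whole brain (−2.48 ± 0.09). *Mef2*, the transcription factor of muscle genes that is also expressed in neurons, was higher in TRAP control, at 1.08 ± 0.25. In the PARIS comparisons 0 genes of both lists passed the adjusted test, out of 11 and 23 tested for PARIS WT and 11 and 22 for PARIS C571A against TRAP control. *parvin*, an integrin adaptor, was listed at 0 counts in PARIS WT replicate 2, and *cpb*, an actin capping subunit, at 0 in PARIS WT replicates 1 and 3, and these zeros can be failed estimates.

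The muscle genes without *Msp300* summed to 2325 ± 155 CPM in PARIS WT, and some lists of other cell types moved between the TRAP groups while others did not. In the order TRAP control, PARIS C571A and PARIS WT, the 4 haemocyte markers summed to 101 ± 8.98, 102 ± 18.1 and 108 ± 8.73 CPM and the 4 DA neuron markers to 417 ± 76.4, 392 ± 62.2 and 393 ± 63.0 CPM, differences within their SD. The DA neuron sums include the doubtful zeros of *ple* and *DAT*. Of 3 DA neuron markers tested in each PARIS group against TRAP control, 2 were positive and 0 were called. The other 1 was lower at an unadjusted p under 0.05, against 5.32% of genes in PARIS C571A and 7.4% in PARIS WT. The 17 testis markers summed to 657 ± 40.2, 480 ± 11.4 and 310 ± 41.7 CPM, with *can* at 0 in every library. Against TRAP control, 2 of 15 testis markers tested passed the adjusted test in PARIS C571A and 7 of 16 in PARIS WT, each of them lower. Over all genes, 0.15% were called lower in PARIS C571A and 0.608% in PARIS WT. The 7 gut markers summed to 65.8 ± 15.4, 17.1 ± 2.35 and 9.17 ± 1.17 CPM. Of them, 0 of 4 tested were called in PARIS C571A and 2 of 4 were called lower in PARIS WT, beside the same shares. The 9 glia markers summed to 775 ± 27.1, 1079 ± 62.4 and 917 ± 57.2 CPM, with 9 of 9 positive in PARIS C571A and 0 called. Their median log2 fold change there was 0.71, beside 0.01 over all genes. The 3 flight muscle genes summed to 1.03 ± 1.01, 3.09 ± 1.17 and 2.09 ± 0.26 CPM. The part of these cells in the change of *Msp300* was not tested.

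Promoters were searched for the binding consensus of MEF2, because several muscle genes are MEF2 targets in flies. In the 500 bases before the gene start, on either strand, 12 of 31 muscle genes (38.7%) held a match, as did 24.4% of 13945 protein-coding genes. The consensus is rich in A and T and can overlap a TATA box. The sites of 3 genes are shown, of *fln* for its low counts in TRAP libraries, of *Act87E* for its uneven counts and of *Mlc2* for its values in PARIS C571A, with the match in capitals, in release 6. They start 82, 158 and 310 bases before the gene start, at chr3L:19991283-19991312 on the minus strand, chr3R:13425815-13425844 on the plus strand and chr3R:30174842-30174871 on the minus strand. A match is a run of letters and no evidence of binding.
fln: tttcggccaaTTAAATTTAGtatgtgagta
Act87E: cgaaaacaaaTTATTTTTAAaagaaactca
Mlc2: ttctctgcctTTAAAATTAGatttttgatt

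*Mhc*, *Act79B*, *sls* and *Msp300* held no match in this window. Of the 31 muscle genes, 16 overlap another annotated gene, 13 of them on the opposite strand. Overlap was taken between whole gene bounds, and shared exon sequence was not tested. The library kit does not mark strand, so reads from a stretch that both genes use cannot be told apart by strand.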

How the data were processed

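Ribosome-bound mRNA was sequenced in 9 TRAP libraries and total RNA in 1 whole brain library. The authors aligned reads with HISAT2 2.1.0 to BDGP6.28, estimated transcript abundance with StringTie 2.0, which splits multi-mapped reads, and deposited estimated counts per gene as whole numbers, without normalization. Rows naming no gene (87 per table, at most 0.0209% of counts) were left out. Symbols and positions came from Ensembl BDGP6.54 (17619 of 17716 IDs), sequences from RefSeq release 6. The sequences of the actin genes are not reported here.

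Pairs of groups were compared by edgeR 4.0.16 (quasi-likelihood test, TMM, filterByExpr with minimum count 10 and total 15, R 4.3.3) over all genes, with Benjamini-Hochberg adjustment and a threshold of 0.05. SE came from the fold change and F. Whole brain was compared by log2 ratios of CPM with a prior count of 1. The tests were tried on simulated data. Alternatives included DESeq2 1.42.0. All 31 genes are named. Per-library values are given for genes that passed a test, the 3 with the smallest p in each direction, and the extremes against whole brain. The genes and lists were defined by name, but they were chosen with earlier results of these data known. Intervals were not computed, since replicates differed by more than counting noise. Replicate numbers did not pair libraries (correlations of deviations −0.038 to 0.065).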

Additional observations from a re-analysis of the deposited data

How the results depend on the processing

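Over all alternatives, 123 values of counts and medians stayed near the reported one and 24 moved. For single muscle genes 243 kept direction and side of the threshold, 8 lost the call (each of them *Msp300* in PARIS C571A), 7 gained one (each with DESeq2) and none reversed. In PARIS C571A against TRAP control, the count of muscle genes called lower went from 1 to 0 with no filter, with the replicate block (adjusted p of *Msp300* 0.704) and without any 1 library (0 to 0), and to 3 with DESeq2, which called 1 higher. DESeq2 called 2 lower in PARIS WT against TRAP control, and 1 lower and 1 higher in PARIS WT against PARIS C571A. Over all genes it called 573 lower and 168 higher in the former, and 179 lower and 144 higher in the latter. DESeq2 tests genes that the edgeR filter left out and models the spread differently; the cause was not tested. With 1 library left out, the median log2 fold change ranged from 0.070 to 0.14 for PARIS C571A and from −0.030 to 0.21 for PARIS WT against TRAP control, and from −0.045 to 0.064 for PARIS WT against PARIS C571A, where it was also negative with no filter (−0.0042), DESeq2 (−0.015) and all 3 groups in one fit (−0.029). Library sizes alone moved the median ratio to whole brain to −1.85 and that of all genes to −1.44, and the count above whole brain in every replicate to 1. The replicate numbers share no stated pairing, and the block changed no other call of a muscle gene. The depth of 8819116 counts in the smallest library limits *Act88F*, *TpnC4*, *TpnC47D* and *fln*.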
